A study of Mus musculus with 2 samples.

Results

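The 38 genes described here are nuclear receptors of the mouse other than steroidogenic factor 1 (SF-1, Nr5a1) and the glucocorticoid receptor (GR, Nr3c1). They were chosen by symbol, from a list set by function and not by level, and are 38 of the 49 nuclear receptor genes and of the 55536 gene IDs in the gene table. Each symbol matched 1 gene ID, and all 38 are annotated as protein-coding. The tissue is adrenal gland from females of the hybrid B6CASTF1/J, bred from the strains C57BL/6J and CAST/EiJ, taken at an age of 10 days and sequenced as total RNA. There is 1 group with 2 libraries, replicate 1 and replicate 2, and no second condition. Each library came from 300 ng of RNA, was depleted of ribosomal RNA, went through a directional library kit and carried ERCC spike-ins. The labels do not settle whether the libraries stand for separate animals. SDs therefore cover only the spread between these 2 samples, which may be technical.

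Nuclear receptors are transcription factors with a zinc finger DNA-binding domain, and most also have a pocket for a small lipophilic ligand such as a steroid, thyroid hormone, retinoic acid, a fatty acid, an oxysterol or a bile acid. Many bind DNA as a pair with a retinoid X receptor (RXR) and exchange corepressors for coactivators when the ligand arrives, while orphan receptors act without a known hormone. In the adrenal gland SF-1 drives the steroidogenic genes, and thyroid hormone, retinoid, sterol and fatty acid receptors are known to act on zonation and cholesterol supply, while the PPARs are best known from liver and fat.

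Expected counts summed to 35636846 in replicate 1 and 33378436 in replicate 2. In them 14948 and 14684 genes reached 1 TPM, a unit that divides by transcript length and scales every library to the same sum. All 10 adrenal cortex markers and all 8 medulla markers were at 1 TPM or more in both libraries. None of them passed the threshold of difference between the libraries that is given further on. Of all genes tested, 4.05% passed as higher in replicate 1 and 2.75% as higher in replicate 2, so that none passed says little about these markers. Marker genes of other tissues were also detected. The 10 hepatocyte markers summed to 5747 TPM in replicate 1 and 1115 TPM in replicate 2, the 10 kidney tubule markers to 1.10 and 289.9 TPM, the 6 brown fat markers to 3158 and 3758 TPM, and the 8 skeletal muscle markers to 3007 and 1033 TPM. Their part in the receptor levels of a whole gland was not tested, and in such bulk samples fewer cells of a type and less RNA per cell cannot be told apart.

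Most of the receptors were present. At a level of at least 1 TPM in both libraries, 30 of 38 were detected (78.9%), beside 58.1% of the 22015 nuclear protein-coding genes. At 10 TPM or more in both there were 13 receptors (34.2%), beside 27.8% of those genes. With TPM rescaled over nuclear protein-coding genes, 25 receptors and 46.2% of those genes reached 10, and in the other deposited quantification of the libraries 19 receptors and 35.7% of those genes reached 10 TPM. The median receptor stood at 7.22 TPM in replicate 1 and 7.95 TPM in replicate 2, and the median nuclear protein-coding gene at 2.98 and 2.74 TPM. Together the 38 genes held 468.9 TPM in replicate 1 and 458.0 TPM in replicate 2. The other 11 nuclear receptors, SF-1 and GR among them, held 201.6 and 257.8 TPM.

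In order of mean TPM the list opened with the thyroid hormone receptor Thra, then the fatty acid receptors Pparg and Ppara and the estrogen-related receptor Esrra, and each of these 4 differed from the next by more than their SDs. Nr1h2, Nr2f2, Nr2f6 and Rxrb followed. Of these, Nr1h2, Nr2f2 and Nr2f6 overlapped the next receptor within the SD, and Rxrb did not. Nr2f2, at 29.4 ± 4.35 TPM, also overlapped Esrra (32.4 ± 0.382 TPM) and Ppara (36.8 ± 3.79 TPM), which are not its neighbours. The places of Ppara and Esrra above Nr2f2 are thus not firm. Over the whole order, 24 of 37 neighbouring pairs overlapped in this way, so the rank of a receptor in the middle of the list is not firm. At the top, the places of Ppara and Nr2f2 were not the same in the other deposited quantification. With TPM rescaled there over nuclear protein-coding genes, Thra at 166.5 and Pparg at 154.7 were followed by Nr2f2 at 113.5, Esrra at 99.5, Nr1h2 at 95.8 and Ppara at 89.1. The median coefficient of variation between the libraries was 6.80% over the 30 detected receptors and 6.51% over all detected nuclear protein-coding genes.

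**Figure D1:**
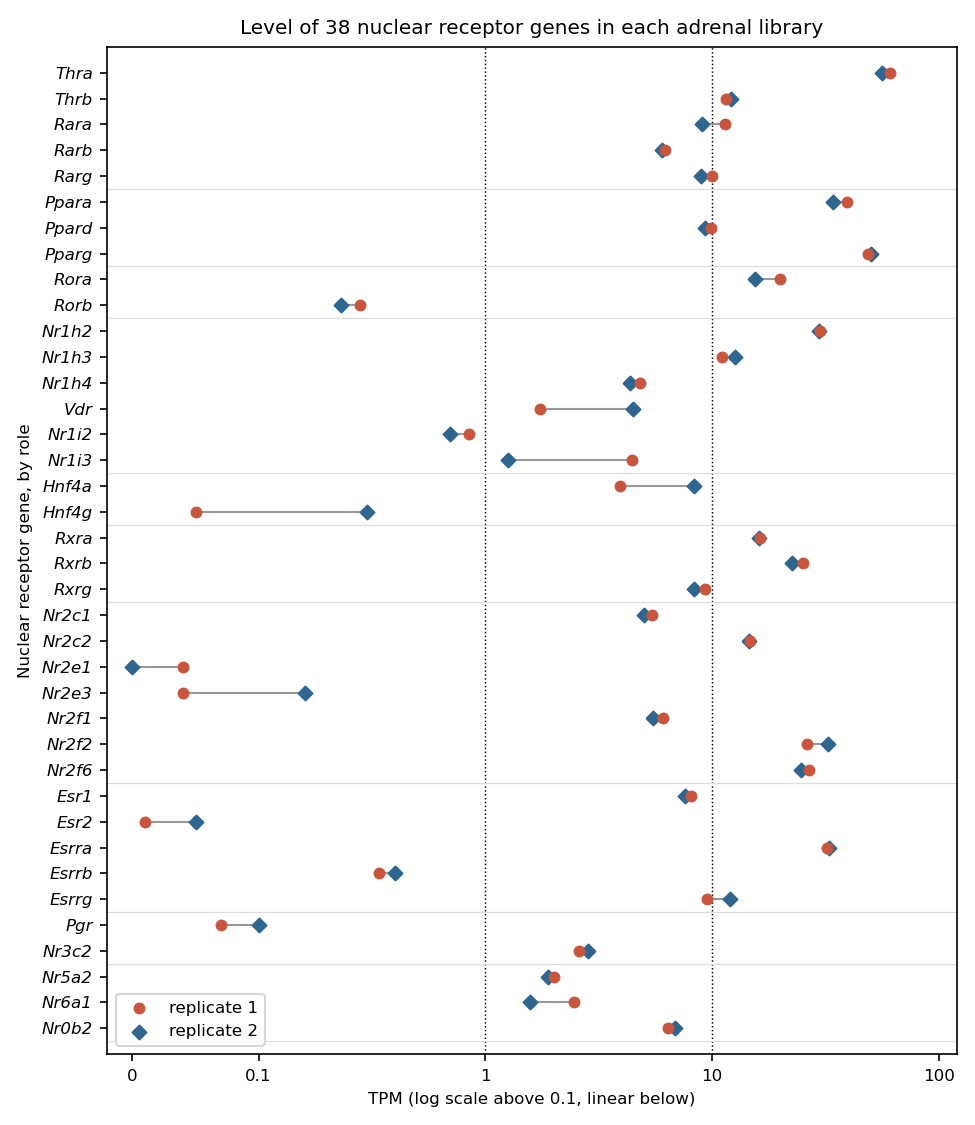
TPM of the 38 receptor genes (rows, grouped by role) in replicate 1 (circles) and replicate 2 (diamonds), on an axis that is logarithmic above 0.1 TPM, with dotted lines at 1 and 10 TPM. The symbols of a gene lie close together for most genes, Thra is highest at 60.9 and 56.3 TPM, and Vdr, Nr1i3, Hnf4a and Hnf4g are the 4 tested genes more than 2-fold apart.

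The thyroid hormone receptors were led by Thra, on chr11:98740638-98769006 (mm10, plus strand). It stood at 60.9 TPM in replicate 1 and 56.3 TPM in replicate 2, or 58.6 ± 3.23 TPM (SD, n = 2). Thrb, the second gene for a thyroid hormone receptor, stood at 11.54 and 12.1 TPM. Thra thus made up 84.1% of the summed TPM of the pair in replicate 1 and 82.3% in replicate 2.

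Thra makes 2 main proteins that share their DNA-binding domain. Thra-202, with 410 codons, encodes the hormone-binding TRα1, and Thra-201, with 492 codons, encodes TRα2, whose different end does not bind hormone. Thra-201 took 46.9% of the gene's TPM in replicate 1 and 46.7% in replicate 2, and Thra-202 took 35.8% and 33.5%. The other deposited quantification of the same libraries gave 43.0% and 46.1% for Thra-201 and 32.3% and 33.1% for Thra-202. All 4 estimates put the TRα2 transcript ahead. The end of Thra overlaps the antisense gene Nr1d1 by 1075 bases on chromosome 11, and Nr1d1, which encodes the clock repressor REV-ERBα, stood at 19.7 and 12.7 TPM. With the use of strand in counting not given in the sources used here, reads of Thra and Nr1d1 in that stretch may not have been separated. The stretch starts at 98767932, within the span of Thra-201, which ends at 98769006, and beyond the end of Thra-202 at 98765111. The lead of the TRα2 transcript carries this doubt in all 4 estimates, and its size was not tested.

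Thrb was less concentrated on its upstream starts, and its leading transcript was not the same in both quantifications. Thrb-202, which starts furthest downstream at position 17981529 of chromosome 14 and has 475 codons, took 31.0% of the gene in replicate 1 and 29.9% in replicate 2. In the other quantification it took 18.9% and 21.9%. The starts between 17660261 and 17660896 together took 69.0% and 57.3%, against 79.5% and 78.1% there.

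Around the thyroid receptors, the thyroid hormone transporter Slc16a10 stood at 6.07 TPM in replicate 1 and 7.19 TPM in replicate 2. Of the deiodinases, Dio2, which activates thyroxine, was at 3.99 and 5.28 TPM, and Dio1 at 2.99 and 1.94 TPM. Ttr, which carries thyroxine in blood and is a hepatocyte marker, was the 1 of 7 tested genes of hormone handling past the threshold, with 320.2 TPM in replicate 1 and 63.98 TPM in replicate 2. Of 6 textbook thyroid receptor targets, none passed it, and few of 6 would at the shares over all genes given above. Thrsp, a lipogenic gene, was at 150.3 and 198.9 TPM, Me1, the malic enzyme, at 76.3 and 83.6 TPM, and Klf9 at 20.2 and 31.1 TPM.

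The retinoic acid receptors were spread more evenly. Rara stood at 11.45 TPM in replicate 1 and 8.98 TPM in replicate 2, Rarg at 10.01 and 8.96 TPM, and Rarb at 6.17 and 6.04 TPM. The family summed to 27.6 and 24.0 TPM, of which Rara took 41.4% and 37.5%. Each gene has alternative starts that give proteins with different amino-terminal ends.

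All RNA of Rarb was assigned to its downstream starts. The group of starts from 16575045 to 16575827 on chromosome 14 (minus strand) took 100% of the gene in both libraries and in both quantifications. The upstream starts at 16819005 and 16819156 were listed at 0 in all 4 estimates. The transcripts annotated from them, Rarb-204 and Rarb-203, are short, with 360 and 708 bases and 74 and 139 codons. Neither reaches the end of the gene, so any upstream RNA there could only be assigned to downstream transcripts. The shares thus do not show that upstream RNA was absent. The leading transcript, Rarb-201, has 448 codons, the length of the RARβ2 form, and took 76.2% and 81.2% of the gene, or 43.3% and 43.1% in the other quantification. This downstream promoter is a textbook target of retinoic acid, through a direct repeat of receptor half-sites that lie 5 bases apart. The 250 bases before the RefSeq start of Rarb, chr14:16575477-16575726 (GRCm38.p6, the mm10 build, minus strand), are shown because they hold that repeat, which is in capitals:
Rarb: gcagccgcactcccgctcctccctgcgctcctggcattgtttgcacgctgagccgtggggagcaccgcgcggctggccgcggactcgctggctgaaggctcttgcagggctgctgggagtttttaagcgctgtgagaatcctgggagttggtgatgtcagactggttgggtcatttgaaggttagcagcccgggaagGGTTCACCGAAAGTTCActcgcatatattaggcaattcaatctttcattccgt
The first half-site of the repeat is GGTTCA. The second is AGTTCA. The repeat spans bases 53 to 37 before the RefSeq start and chr14:16575513-16575529, which is 14 bases downstream of the start of Rarb-201 in the annotation used for the counts.

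To see how common such letters are, direct repeats of the consensus half-site AGGTCA or its variants (AGTTCA or else GGTTCA), in any pairing and on both strands, were searched in all 32851 RefSeq promoter windows of 300 bases (250 before the start and 50 from it). A spacing of 5 (with N for each spacer base, GGTTCANNNNNAGTTCA in Rarb) was found in 0.0609% of windows. Among the 57 windows of the 36 receptors with an entry, Rarb's was the single one that held it. The variants searched are the half-sites of Rarb's own repeat, so its hit was fixed in advance. Spacings of 1, 2, 3 and 4 were found in 0.1%, 0.21%, 0.0244% and 0.0457% of all windows and in none of the receptors' windows. The lone half-site AGGTCA, which those repeats can contain, was in 16.3% of all windows and in 10 of 57 receptor windows. The extended half-site TCAAGGTCA, bound by estrogen-related and NR5A receptors, was in 0.423% of windows and in none of the receptors'. Thra and Hnf4g are not among the 36.

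Rarg too was mostly assigned to downstream starts, while Rara was divided between upstream and downstream starts. Rarg-202, from the starts between 102245231 and 102246500 of chromosome 15, has 447 codons and took 68.5% of Rarg in replicate 1 and 63.9% in replicate 2. Rarg-201, with 458 codons from the upstream start, took 16.9% and 19.9%. Rara-202, with 459 codons and the start furthest downstream, took 41.8% and 50.7% of Rara. Rara-204, with 462 codons from an upstream start, took 39.7% and 48.7%, and in the other quantification it led in replicate 1 with 47.0% against 37.0% for Rara-202.

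Of 13 genes that make, carry or break down retinoids, 9 were at 1 TPM or more in both libraries. The retinal reductase gene Dhrs3 stood at 41.7 and 43.3 TPM, and Aldh1a2 and Aldh1a1, which make retinoic acid, at 9.66 and 10.64 TPM and at 9.82 and 9.69 TPM. Of 10 tested genes of retinoid handling, Rbp4, the retinol carrier of blood, passed the threshold with 110.4 TPM in replicate 1 and 32.95 TPM in replicate 2. Stra6, the retinol transporter, passed it the other way with 0.42 and 1.5 TPM. Of 7 tested targets of the retinoic acid receptors only Stra6 passed. Among the rest, Tgm2, a transglutaminase, was at 25.5 and 24.8 TPM. The degrading enzyme Cyp26a1, a gene that retinoic acid strongly induces, was listed at 0 in replicate 1 and at 0.06 TPM in replicate 2.

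The RXRs are the shared partners of the thyroid, retinoid, fatty acid, sterol and vitamin D receptors. Rxrb stood at 25.1 TPM in replicate 1 and 22.4 TPM in replicate 2, Rxra at 16.3 and 16.03 TPM, and Rxrg at 9.28 and 8.30 TPM. Together they held 50.7 and 46.8 TPM. Counted here as partners were 14 of the 38: the thyroid hormone and retinoic acid receptors, PPARs, LXRs, Nr1h4, Vdr, Nr1i2 and Nr1i3. The list is not exhaustive, and the NR2 orphans were not counted in it. These 14 held 251.1 and 238.7 TPM, which is 4.96 times the RXR sum in replicate 1 and 5.10 times in replicate 2. Rxra came almost entirely from 1 transcript, Rxra-201 with 467 codons, at 93.4% and 89.3% of the gene.

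Rxrg, the RXR with the narrowest tissue range, was mostly its short form. Rxrg-202, with 340 codons and a start of its own at position 167618309 of chromosome 1, took 93.6% and 94.7% of the gene. The long form Rxrg-201, with 463 codons, took 6.38% and 5.33%. In the other quantification the short form took 68.4% in replicate 1 and 81.9% in replicate 2, so the excess was there in all 4 estimates and its size was not the same.

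The peroxisome proliferator-activated receptors (PPARs), which sense fatty acids, held the largest family sum among those compared, 98.2 TPM in replicate 1 and 93.4 TPM in replicate 2. Pparg, the main regulator of fat cells, stood at 48.8 and 50.03 TPM (49.4 ± 0.856 TPM, SD, n = 2). Ppara, which drives fatty acid oxidation, was at 39.5 and 34.1 TPM (36.8 ± 3.79 TPM). Ppard, expressed in most tissues, was at 9.84 and 9.28 TPM.

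Fat markers were abundant beside Pparg. Fabp4, the fatty acid-binding protein of fat cells, stood at 1535 and 1922 TPM, and Ucp1, the uncoupling protein of brown fat, at 978.3 and 1302 TPM. The 8 fat markers summed to 2837 TPM in replicate 1 and 3270 TPM in replicate 2. Their part in the Pparg level was not tested. Of the 20 PPAR targets, which share Fabp4, Ucp1, Cidea, Cpt1b, Plin1 and Adipoq with those marker lists, all were at 1 TPM or more in both libraries and 17 at 10 TPM or more. Past the threshold, 1 of them was higher in replicate 1 and 1 in replicate 2. The target higher in replicate 2 was Cyp4a10, a fatty acid hydroxylase, with 1.61 TPM in replicate 1 and 6.45 TPM in replicate 2. The median log2 ratio of the list (replicate 1 over replicate 2) was -0.25, beside 0.003 over all genes tested.

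Pparg has 2 protein forms, PPARγ1 from upstream starts and the longer PPARγ2, known from fat cells, from a start of its own. The quantifications did not place them alike. In the gene table's quantification Pparg-201, with 505 codons and the PPARγ2 start, took 38.7% of the gene in replicate 1 and 41.2% in replicate 2. In the other quantification it took 0.113% and 0.000503%. The upstream start group, which includes the PPARγ1 transcripts Pparg-204 and Pparg-202 with 475 codons each, took 56.7% and 57.6% in the first and 87.3% and 90.3% in the second. The presence of upstream-start RNA thus held in both, and that of PPARγ2 RNA rests on 1 of them.

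The RefSeq promoters near these starts differ in base composition, and are shown for that with each CG dinucleotide in capitals. In the annotation used for the counts, Pparg-202 starts at 115360951 and Pparg-204 at 115362292. Both starts lie inside an upstream window, so part of each such window is downstream of them. The upstream windows are chr6:115360894-115361143 and chr6:115362099-115362348, and the PPARγ2 window is chr6:115421816-115422065 (GRCm38.p6, plus strand, 250 bases before each RefSeq start):
Pparg upstream 1: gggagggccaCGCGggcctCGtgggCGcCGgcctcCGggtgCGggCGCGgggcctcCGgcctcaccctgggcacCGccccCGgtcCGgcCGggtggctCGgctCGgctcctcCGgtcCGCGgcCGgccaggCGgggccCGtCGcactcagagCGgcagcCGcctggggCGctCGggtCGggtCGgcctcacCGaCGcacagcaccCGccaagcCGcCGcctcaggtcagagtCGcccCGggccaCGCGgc
Pparg upstream 2: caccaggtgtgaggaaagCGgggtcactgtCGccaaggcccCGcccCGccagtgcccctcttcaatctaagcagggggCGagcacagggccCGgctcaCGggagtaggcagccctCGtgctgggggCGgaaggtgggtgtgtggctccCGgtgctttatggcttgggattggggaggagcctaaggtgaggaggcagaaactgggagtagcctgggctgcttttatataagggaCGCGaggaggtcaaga
Pparg gamma2: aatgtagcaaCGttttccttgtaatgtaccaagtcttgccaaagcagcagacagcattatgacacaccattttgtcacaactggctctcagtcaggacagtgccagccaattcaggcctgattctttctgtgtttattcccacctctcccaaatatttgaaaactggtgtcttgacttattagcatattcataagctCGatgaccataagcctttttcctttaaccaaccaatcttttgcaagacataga
The first holds 38 CG dinucleotides, the second 12 and the PPARγ2 promoter 2. The letters TATAAA, read on either strand, lie in the second window and not in the others, and occur in 13.6% of all 32851 windows.

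**Figure D2:**
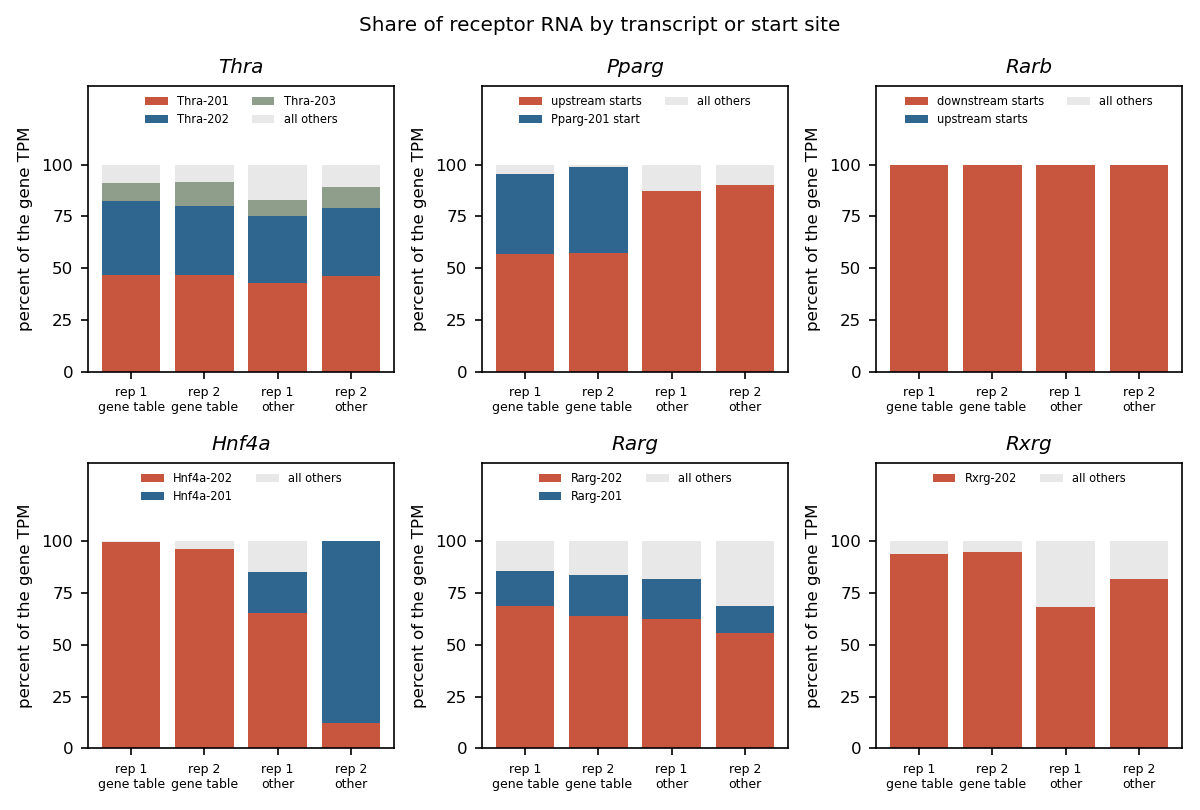
Percent of each gene's TPM (vertical axis) taken by named transcripts or start groups in 6 receptor genes, with bars for replicate 1 and replicate 2 in the gene table's quantification and then in the other one. Thra, Rarb and Rarg look alike across the bars, the PPARγ2 start is seen only in the gene table's bars (38.7% and 41.2%), and the Hnf4a transcripts trade places.

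The sterol receptors LXRα (Nr1h3) and LXRβ (Nr1h2) respond to oxysterols and limit cholesterol load in steroid-making cells. Nr1h2 stood at 30.0 TPM in replicate 1 and 29.5 TPM in replicate 2, and Nr1h3 at 11.1 and 12.6 TPM. Nr1h2 made up 73.0% and 70.0% of the pair. Of the 10 LXR targets, a list that holds Nr1h3 itself, Abcg5 and Abcg8, whose products together export sterols from liver and gut, passed the threshold. Abcg5 was at 3.07 TPM in replicate 1 and 0.85 TPM in replicate 2, and Abcg8 at 2.93 and 0.85 TPM. Scd1 (59.7 and 76.6 TPM), Srebf1 (61.1 and 48.4 TPM) and the cholesterol exporter Abca1 (34.1 and 35.7 TPM) did not pass it.

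The bile acid receptor FXR (Nr1h4) stood at 4.8 TPM in replicate 1 and 4.34 TPM in replicate 2. Nr0b2 encodes SHP, a receptor without a DNA-binding domain that FXR induces and that represses other receptors, and it was at 6.36 and 6.87 TPM. These levels overlapped between the libraries in their credibility intervals, 4.23 to 5.29 TPM and 3.78 to 4.82 TPM for Nr1h4, and 5.44 to 7.08 TPM and 5.89 to 7.66 TPM for Nr0b2. The pregnane X receptor Nr1i2, which senses drugs in liver and gut, was under 1 TPM, at 0.85 and 0.70 TPM.

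The estrogen-related receptors, orphans that drive mitochondrial genes, summed to 42.0 TPM in replicate 1 and 45.1 TPM in replicate 2. Esrra was at 32.2 and 32.7 TPM, Esrrg at 9.49 and 11.98 TPM and Esrrb at 0.34 and 0.40 TPM. All 10 of their listed targets, Esrra and the shared PPAR target Acadm among them, were at 10 TPM or more in both libraries. None passed the threshold, and few of 10 would at the shares over all genes. Atp5b of the ATP synthase stood at 1824 and 1891 TPM. Brown fat, whose marker Cox8b was at 981.0 and 1100 TPM, is also rich in mitochondria, and its part here was not tested.

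The estrogen receptor Esr1 stood at 8.08 TPM in replicate 1 and 7.60 TPM in replicate 2, and 60.6% and 71.0% of it was Esr1-204, which has 599 codons. Esr2 had 1 count in replicate 1 and 5 in replicate 2, too few to test. The progesterone receptor Pgr, itself a target of estrogen receptors, had 15 and 18 counts and 0.07 and 0.10 TPM. Of 5 estrogen receptor targets, Pgr included, none passed the threshold, and few of 5 would at the shares over all genes. The prolactin receptor Prlr stood at 30.6 and 29.7 TPM and Greb1 at 12.3 and 7.35 TPM.

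The mineralocorticoid receptor Nr3c2, which aldosterone activates in kidney and other epithelia, was low in the gland itself, at 2.59 TPM in replicate 1 and 2.84 TPM in replicate 2. It did not pass the threshold, with a log2 ratio of -0.09 (95% interval -0.31 to 0.13). Of its 9 listed targets 5 were higher in replicate 2. These were the sodium channel subunits Scnn1a (0.38 and 2.50 TPM), Scnn1b (0.21 and 2.52 TPM) and Scnn1g (0.01 and 1.88 TPM), Hsd11b2, which inactivates corticosterone in aldosterone target cells (0.82 and 8.10 TPM), and Zbtb16 (9.23 and 20.4 TPM). The targets Tsc22d3 (29.7 and 38.05 TPM) and Sgk1 (31.4 and 36.1 TPM), which GR also drives, did not pass it. Kidney tubule markers, 10 of 10, were also higher in replicate 2, and their part in these 5 was not tested.

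Among the orphans of the NR2 group, COUP-TFII (Nr2f2), a regulator of veins, mesenchyme and steroid-making cells, stood at 26.3 TPM in replicate 1 and 32.4 TPM in replicate 2. Nr2f6 was at 26.7 and 24.6 TPM and COUP-TFI (Nr2f1) at 6.08 and 5.5 TPM. The testicular receptors, repressors of the same direct repeats, were at 14.7 and 14.5 TPM for Nr2c2 and at 5.42 and 5.02 TPM for Nr2c1. Nr2e3, which acts in photoreceptors, had 2 counts in each library. Nr2e1, which acts in neural stem cells, had 1 count in replicate 1 and 0 in replicate 2, where a count of 0 allows up to 0.0907 CPM (counts scaled to the library total).

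Rora, a receptor that activates the sites REV-ERBs repress, stood at 20.01 TPM in replicate 1 and 15.5 TPM in replicate 2. Its starts gave a stable split: those between 68653786 and 68655303 on chromosome 9 took 69.7% and 67.7%, and the start of Rora-202 at 69289682, with 467 codons, took 28.7% and 30.5%. The other quantification gave 68.1% and 66.9% for the first and 28.9% and 29.5% for the second. Rorb, known from brain and retina, was at 0.28 and 0.23 TPM.

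Nr5a2 (LRH-1) is the closest relative of SF-1 and binds the same sites. It stood at 2.01 TPM in replicate 1 and 1.89 TPM in replicate 2, beside 72.8 and 83.1 TPM for Nr5a1. Nr6a1, a germ cell factor whose gene lies 8827 bases from Nr5a1 on chromosome 2, was at 2.45 and 1.57 TPM.

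Each gene was compared between the libraries by an exact binomial test, two-sided, on its rounded expected counts, for the 18883 genes that reached 20 counts in all. A gene passed the threshold at a Benjamini-Hochberg adjusted p under 0.05 and at least 2-fold. The test compares these libraries beyond counting error and has no replicate check, and no test over animals could go below an exact p of 0.5. Of the 38 receptors 35 could be tested. Only 1 was higher in replicate 1, Nr1i3, beside 4.05% of all genes tested, and 3 were higher in replicate 2, Vdr, Hnf4a and Hnf4g, beside 2.75%.

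Nr1i3 encodes CAR, the constitutive androstane receptor, a sensor of drugs and bilirubin known from liver. It had 377 counts (4.44 TPM) in replicate 1 and 86 counts (1.26 TPM) in replicate 2. That is 3.89-fold higher in replicate 1 (95% interval 3.09 to 5.002, log2 ratio 1.96, adjusted p = 4.083e-36 by the exact binomial test). Nr1i3 overlaps the antisense gene Tomm40l by 4691 bases, and Tomm40l was at 19.2 and 18.3 TPM. Nr1i3-207, annotated as a retained intron, took 31.2% and 27.6% of the gene.

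The 10 hepatocyte markers were all higher in replicate 1, with a median log2 ratio of 2.28. Alb, the serum albumin, was at 2509 TPM in replicate 1 and 501.6 TPM in replicate 2. Genes regulated by CAR, PXR and FXR were split. Of 11 such genes 6 were higher in replicate 1: Cyp3a11 (25.4 and 5.04 TPM), Ugt1a1 (13.3 and 3.47 TPM), Cyp8b1 (5.34 and 1.14 TPM), Abcb11 (3.70 and 0.64 TPM), Cyp2c29 (0.84 and 0.19 TPM) and Cyp7a1 (0.72 and 0.15 TPM). Another 3 were higher in replicate 2: Slc51b (0.15 and 1.84 TPM), Slc51a (0.04 and 0.70 TPM) and Cyp2b10, the classic CAR target, with 0.46 TPM in replicate 1 and 1.2 TPM in replicate 2. The part of hepatocyte RNA in these values was not tested.

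Vdr, the receptor for the active form of vitamin D, had 143 counts (1.75 TPM) in replicate 1 and 430 counts (4.47 TPM) in replicate 2. It was 3.36-fold higher in replicate 2 (95% interval 2.78 to 4.10, log2 ratio -1.75, adjusted p = 1.614e-40 by the exact binomial test). That fold is of counts. In the other quantification Vdr had 173 and 498 counts, and its TPM, 6.19 and 10.1, were less than 2-fold apart. Its full transcript Vdr-201, with 422 codons, took 53.1% of the gene in replicate 1 and 69.8% in replicate 2, but 23.2% and 45.6% in the other quantification, where the short Vdr-206 took 30.8% and 40.5%. All 5 tested genes of the vitamin D list were also higher in replicate 2. S100g, a calcium-binding protein, was at 0.55 TPM in replicate 1 and 57.8 TPM in replicate 2, Calb1, another one, at 0.39 and 4.19 TPM, Cyp27b1, which makes the active vitamin, at 0.10 and 0.83 TPM, and the calcium channel Trpv5 at 0.01 and 0.55 TPM. Cyp24a1, which degrades the vitamin, was listed at 0 in replicate 1 and at 0.66 TPM in replicate 2. These are also genes of the kidney tubule.

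Hnf4a, a receptor that sets the identity of liver, kidney tubule and gut cells, had 559 counts (3.91 TPM) in replicate 1 and 1075 counts (8.32 TPM) in replicate 2. It was 2.16-fold higher in replicate 2 (95% interval 1.95 to 2.39, log2 ratio -1.11, adjusted p = 3.362e-50 by the exact binomial test), the direction of the kidney list and not of the hepatocyte list. The related Hnf4g had 4 counts in replicate 1 and 20 in replicate 2, which is 5.11-fold with a wide interval of 1.88 to 22.6 (adjusted p = 0.002045 by the exact binomial test). The 10 kidney tubule markers had a median log2 ratio of -8.67. Slc34a1, the phosphate transporter of the proximal tubule, was at 0.14 TPM in replicate 1 and 80.8 TPM in replicate 2, and the organic anion transporter Slc22a6 was listed at 0 in replicate 1 and at 3.94 TPM in replicate 2. The part of kidney or hepatocyte RNA in the difference of Vdr, Hnf4a and Hnf4g was not tested.

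Hnf4a has 2 promoters, and the upstream one, known from gut and pancreas, was assigned almost none of its RNA. Hnf4a-205, which starts at position 163506808 of chromosome 2, was listed at 0 in both libraries in the gene table's quantification and took 0.00122% and 0% in the other. It is the only transcript annotated from that start, and is short, with 431 bases, 100 codons and an end at 163552635. Hnf4a-201 and Hnf4a-202 reach 163572905 and 163572910. Any upstream RNA past the end of Hnf4a-205 could only be assigned to downstream transcripts, so its share does not show that such RNA was absent. The starts between 163546817 and 163547188, the promoter known from liver and kidney, took 100% in replicate 1 and 96.4% in replicate 2, and 100% in both in the other quantification. Within that group the quantifications parted. Hnf4a-202, with 465 codons, took 99.5% and 96.4% in the first and 65.4% and 12.3% in the other, where Hnf4a-201, with 474 codons, took 19.5% in replicate 1 and 87.7% in replicate 2. The windows before the RefSeq starts of the upstream and the downstream promoter are shown because both quantifications assigned the promoters unlike shares. The start of Hnf4a-205 lies inside the upstream window. The windows are chr2:163506607-163506856 and chr2:163546905-163547154 (GRCm38.p6, plus strand, each CG in capitals):
Hnf4a upstream: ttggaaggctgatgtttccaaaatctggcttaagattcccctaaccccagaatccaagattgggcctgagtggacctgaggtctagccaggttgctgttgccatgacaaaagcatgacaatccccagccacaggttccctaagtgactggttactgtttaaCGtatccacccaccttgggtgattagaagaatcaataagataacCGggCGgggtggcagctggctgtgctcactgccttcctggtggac
Hnf4a downstream: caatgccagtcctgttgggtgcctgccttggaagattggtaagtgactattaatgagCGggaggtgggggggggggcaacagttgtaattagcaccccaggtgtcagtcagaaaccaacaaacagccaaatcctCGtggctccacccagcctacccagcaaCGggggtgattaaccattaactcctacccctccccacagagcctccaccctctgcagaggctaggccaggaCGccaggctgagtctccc
They hold 3 and 4 CG dinucleotides in 250 bases.

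**Figure D3:**
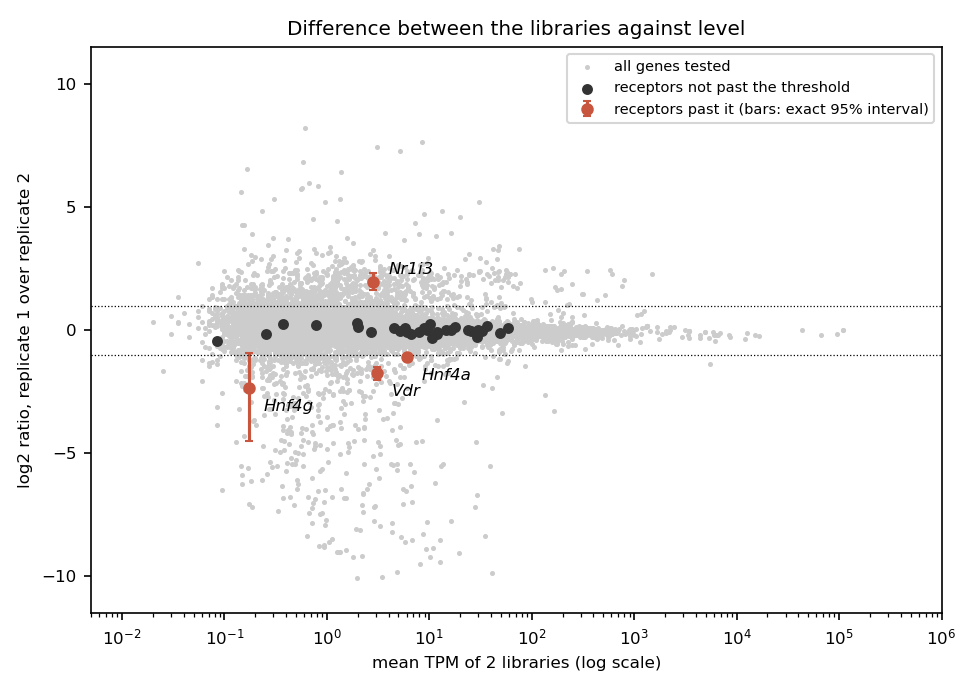
Log2 ratio of replicate 1 over replicate 2 (vertical axis) against the mean TPM (horizontal axis, logarithmic) for the genes tested (grey) and the receptors (black where not past the threshold, red with exact 95% intervals where past it). Dotted lines mark 2-fold, the black points lie between -0.42 and 0.29, and Nr1i3 lies above while Vdr, Hnf4a and Hnf4g lie below.

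The remaining 31 tested receptors had log2 ratios between -0.42 and 0.29. Without the 2-fold limit 10 receptors differed beyond counting error (28.6%), beside 26.65% of all genes tested. The 6 that this adds were small in size. Ppara (log2 ratio 0.19), Rora (0.12) and Rara (0.26) were higher in replicate 1, and Pparg (-0.11), Nr2f2 (-0.27) and Esrrg (-0.32) were higher in replicate 2. The largest of these, Esrrg, had 998 counts in replicate 1 and 1115 in replicate 2, which is 1.253-fold (95% interval 1.15 to 1.37). With total counts as library sizes Pparg was no longer among the 10 (log2 ratio -0.042, adjusted p = 0.5055 by the exact binomial test), and Thra (0.15, adjusted p = 3.877e-05) and Nr5a2 (0.36, adjusted p = 0.03592) differed. Nr5a2 also differed in the other quantification (adjusted p = 0.0229 by the exact binomial test). The median log2 ratio was -0.01 over the tested receptors and 0.003 over all genes.

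**Figure D4:**
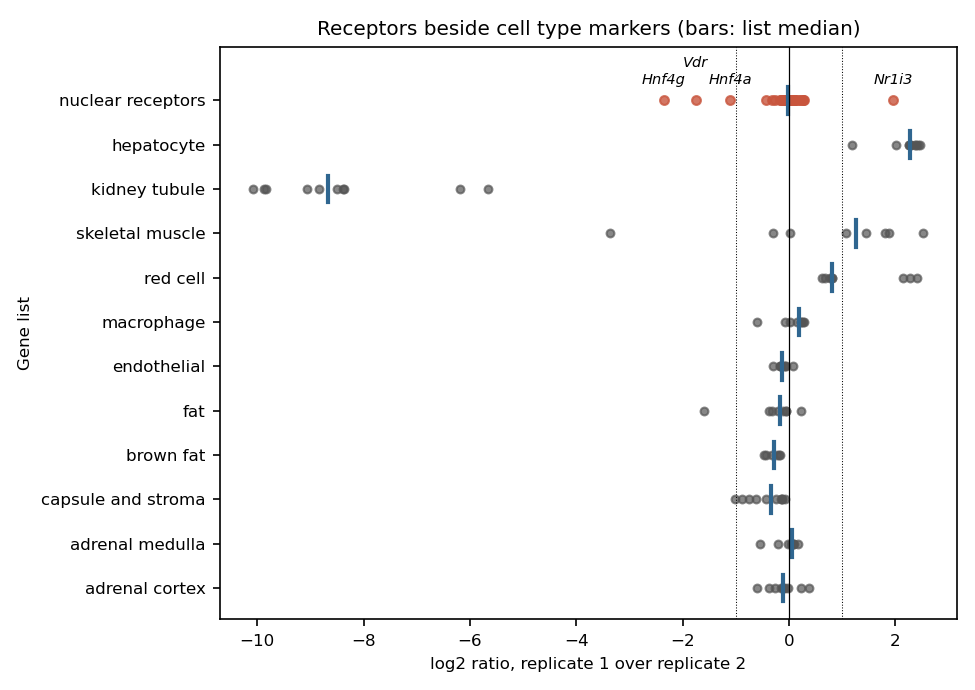
Log2 ratio of replicate 1 over replicate 2 (horizontal axis) for the 35 tested receptors (top row) and for marker genes of 11 cell types (rows below), with a blue bar at each row's median and dotted lines at 2-fold; genes at 0 in a library are placed with a prior count of 0.5. The hepatocyte row lies to the right with a median of 2.28, the kidney tubule row far to the left with a median of -8.67, and all receptors but Nr1i3, Vdr, Hnf4a and Hnf4g lie inside the 2-fold lines.

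Among the shared machinery of the receptors, none of 14 coactivators and none of 10 corepressors passed the threshold. Over all genes tested, 4.05% passed it as higher in replicate 1 and 2.75% as higher in replicate 2. With shares that low, few of 24 genes would pass, so the count says little about these genes. The same holds for the other lists of which none passed. All 24 were at 1 TPM or more in both libraries. Of the coactivators Ncoa4 stood highest, at 51.0 TPM in replicate 1 and 54.2 TPM in replicate 2, and the acetyltransferase Ep300 was at 22.7 and 21.9 TPM. Of the corepressors Ncor1 was at 59.6 and 59.0 TPM and Cnot1 at 53.7 and 51.3 TPM. Of the other 11 nuclear receptors 1 passed, the immediate early gene Nr4a1, with 31.6 TPM in replicate 1 and 81.9 TPM in replicate 2.

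Of the further marker lists, none of the 6 brown fat, 8 endothelial and 8 macrophage markers passed the threshold. One fat marker, Retn (1.23 and 3.57 TPM), and 1 capsule and stroma marker, Wt1 (1.70 and 2.71 TPM), were higher in replicate 2. Of the 8 skeletal muscle markers Acta1, Mylpf, Tnnt3, Ckm and Myh1 were higher in replicate 1 and Myh4 in replicate 2. Of the 8 red cell markers 3 were higher in replicate 1, Slc4a1 and Epb42 among them.

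The receptors' promoters ranged widely in CG content. Taking the window with the most CG dinucleotides for each gene, the 36 receptors had a median of 17 in 300 bases, beside 8 over 27025 genes. There were 20 or more in 41.7% of the receptors and in 28.8% of all genes. The 2 sets are not alike, since the 27025 genes were not limited to protein-coding ones, as the receptors are. The receptors also had 57 windows for 36 genes, against 32851 windows for 27025, and more windows per gene can raise the highest value. The median was 19 over the 29 detected receptors with a window and 7 over the 7 others. The richest were Rxra with 55, Nr2f6 with 53 and Rxrb with 47. Of the genes that differed between the libraries, Nr1i3 had 3, Hnf4a 4 and Vdr 15. Nr2f2 had 2, beside a level of 29.4 ± 4.35 TPM.

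The second quantification can be set beside the gene table once both are rescaled over nuclear protein-coding genes, since these took 34.0% and 32.7% of TPM in the gene table and 56.5% and 53.3% in the other. On that scale most of the detected receptors kept close levels. Vdr differed most among them, with 9.41 in the gene table and 14.96 in the other quantification, a log2 difference of 0.67 (other over gene table). Nr0b2 (-0.43) and Nr2f2 (0.36) came next. Among the 29 detected receptors with more than 1 annotated transcript, the leading transcript by mean share was the same in both for 19. It was not for Thrb, Rara, Nr1h2, Nr1h3, Vdr, Hnf4a, Rxrb, Nr2f2, Esrrg and Nr3c2. In Nr1h3 a transcript with 445 codons led the gene table's quantification with 41.6% and 47.3%, and Nr1h3-204, with the same number of codons, took 69.8% and 68.3% in the other, so the transcripts changed and the length of the protein did not.

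**Figure D5:**
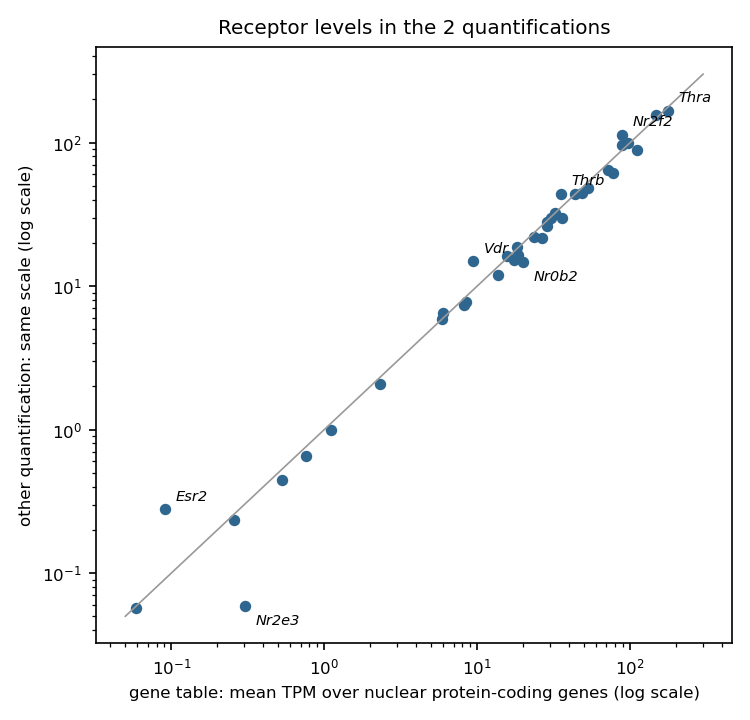
Mean level of each receptor in the gene table (horizontal axis) and in the other quantification (vertical axis), both as TPM rescaled over nuclear protein-coding genes on logarithmic axes, with the line of equality. Most receptors lie close to the line, Vdr lies above it at 9.41 and 14.96, and the rare Esr2 and Nr2e3 lie furthest from it.

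Several receptors share their stretch of the genome with another gene. Of the 38, 21 are overlapped by another annotated gene and 9 by one at a mean of 1 TPM or more. Rarb is overlapped by the antisense Top2b (29.2 and 28.1 TPM) over 4624 bases, Nr2c2 by Mrps25 (17.3 and 19.0 TPM) over 4770 bases, Nr2f6 by Ocel1 (6.56 and 5.19 TPM) over 5239 bases and Esrra by Trmt112 (17.8 and 18.01 TPM) over 73 bases. Nr2f1 and Nr2f2 are overlapped by the antisense RNAs A830082K12Rik and B130024G19Rik, at 2.65 and 1.74 TPM and at 2.33 and 2.27 TPM. Their levels carry the same doubt about strand as Thra and Nr1i3. The thyroid and retinoic acid receptor genes lie in like clusters, with Thra, Nr1d1 and Rara on chromosome 11 and Rarb, Thrb and Nr1d2 on chromosome 14, where the gaps are 152484 bases between Nr1d1 and Rara, 841104 between Rarb and Thrb and 165963 between Thrb and Nr1d2.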

How the data were processed

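Total RNA-seq of 2 libraries was used as deposited. As deposited by the authors under the column names of RSEM, the gene-level table and the transcript table beside it hold expected counts, TPM, the bounds of TPM credibility intervals (a signal range) and the percent of a gene in each transcript. A further transcript table, with kallisto's column names, was also deposited by the authors, with estimated counts and its own TPM. Assembly mm10 and annotation M21 are named in the deposited notes. The aligner, versions, strand use and treatment of CAST/EiJ variants were not given in the sources used here. Gene-table TPM include all features, spike-ins too.

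Expected counts were rounded and scaled with TMM in edgeR 4.0.16 (R 4.3.3). DESeq2 1.42.0 size factors were an alternative. Log2 ratios put replicate 1 over replicate 2, with 0.5 added to each count, and intervals are exact 95% Clopper-Pearson intervals. They and the limit of 3 counts that a count of 0 allows cover counting error only. Starts within 1500 bases were grouped. Other steps used scipy 1.17.1, pandas 2.3.3 and numpy 2.4.6 under Python 3.11.15, and the test was checked on simulated data. Features with a bare number as ID took 1.96e-05% and 1.8e-05% of counts in replicates 1 and 2, and stayed out with the spike-ins. Promoter sequences are from RefSeq, GRCm38.p6, matched by symbol.

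All 38 members, and of each other list the 4 genes with the highest mean TPM and those past the threshold, could be named, and some of these are not reported here. Further named genes were chosen after their values were seen. Members and lists were chosen with earlier results of these data known. Alternatives were other scalings, filters, fold limits, prior counts and denominators, the other quantification, and each library left out.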

Additional observations from a re-analysis of the deposited data

How the results depend on the processing

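The count of 30 detected receptors was 30 without replicate 1 and 30 without replicate 2, and that of receptors at 10 TPM or more was 14 without replicate 1 and 15 without replicate 2, against 13. With TPM rescaled over nuclear protein-coding genes there were 25 at that level. Without the fold limit 4 receptors were higher in replicate 1 and 6 in replicate 2, and over all genes 2241 and 2791, against 764 and 520. With a summed count of at least 100 those counts over all genes were 491 and 306. The log2 ratios of receptors that did not pass the threshold changed sign for Ppard in the other quantification (-0.041) and, with total counts as library sizes, for Nr1h2 (0.062), Rxra (0.062), Nr2c1 (0.048), Nr2c2 (0.059), Nr2f6 (0.044) and Esrra (0.026); the cause was not tested. Over the scalings, the prior count of 2 and the other quantification the log2 ratio of Nr1i3 ranged from 1.84 to 2.03, of Vdr from -1.75 to -1.68, of Hnf4a from -1.12 to -1.04 and of Hnf4g from -2.36 to -2.02. These ratios are of counts in both quantifications, while the TPM of Vdr and Hnf4a in the other one were less than 2-fold apart. Transcript shares moved with the quantification in 22 of 29 genes. No paired analysis was possible because there is 1 group. Depth limits Esr2, Nr2e1, Nr2e3 and Hnf4g, which had 24 counts or fewer in all.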
